A study of Ovis aries with 16 samples.

Results

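The genes of the T cell antigen receptor, its co-receptors and its first kinases were followed in the lungs of newborn lambs with and without an aortopulmonary shunt. The 10 genes were CD3D, CD3E, CD3G, CD247, CD4, CD8A, CD2, CD5, LCK and ZAP70, chosen by gene symbol among the 9155 genes that the probe annotation names. All 10 were found, and every probe set (a group of short probes read as 1 value) that the annotation gives to a single one of them was used, which made 16 probe sets of the 24016 tested. CD2 and LCK had 3 probe sets each, CD3D and CD4 had 2 each, and the remaining 6 genes had 1.

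The study profiled whole lung of 16 newborn lambs on 16 arrays, 8 shunt and 8 control. Per the labels' protocols, each shunt lamb carried a graft vessel (width 8.0 mm, length 2 mm) that was sewn in before birth to join its ascending aorta with its main pulmonary artery and that models a heart defect, while the control lambs came from a sham operation. Fetal surgery was done 9 ± 6 days before term, and peripheral lung was taken from lambs of both groups at 3 days of age, after natural delivery. The labels used here give no breed, sex or agent for either group. Each array was taken as 1 lamb, and if arrays shared an animal the p-values would cover array spread alone. The study's title names angiogenic genes before vascular remodelling as its subject. The T cell genes are a further reading of the same arrays.

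T cells recognise antigen through a receptor whose variable chains have almost no tail inside the cell. Signalling is carried by the CD3 chains (delta, epsilon and gamma, from CD3D, CD3E and CD3G) and by the zeta chain from CD247, whose tails hold tyrosine motifs. The kinase LCK, held near the receptor by the co-receptors CD4 and CD8, phosphorylates these motifs, and the kinase ZAP70 docks on them and passes the signal on. CD2 is an adhesion receptor that strengthens contact with other cells, and CD5 is a surface receptor that dampens receptor signalling. In the lung, T cells are a minority among epithelial, endothelial and stromal cells, so their transcripts are diluted in RNA of whole tissue. In such bulk RNA, fewer T cells and less RNA per T cell cannot be told apart. Several members are not limited to T cells: natural killer cells use CD247, CD2, LCK and ZAP70, some macrophages carry CD4, and some B cells carry CD5.

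None of the 16 probe sets differed between shunt and control past an adjusted p of 0.05 (limma, Benjamini-Hochberg over all probe sets), where 0.0708% of all probe sets tested did (0.0666% higher and 0.00416% lower). Adjusted p ranged from 0.259 for LCK to 0.999 for CD3E. At an unadjusted p under 0.05 (limma), 3 of the 16 were lower in shunt and 0 were higher, while over all probe sets tested 7.32% were lower and 6.42% higher at that level. Those 3 belong to 2 genes, LCK with 2 probe sets and CD3D with 1. In 16 of 16 probe sets the ranges of the groups overlapped, and over the whole array 0.142% of probe sets had groups that did not.

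Against the SD between lambs of a group, the difference was as large or larger in 4 of the 16 probe sets, the 3 of LCK and the dimmer one of CD3D, and smaller in the others. How many of all probe sets tested had such a difference was not counted, so the count of 4 has no background beside it. All differences are given as the log2 level in shunt minus that in control. They ran from -0.20 for an LCK probe set to 0.12 for ZAP70, with a median of -0.08 over the 16 probe sets beside -0.01 over all probe sets tested. Lower values in shunt were found for 12 of the 16 probe sets, or 75%, where 55.1% of all probe sets were lower. The probe sets of a gene are not independent readings, and counted by the brightest probe set of each gene 6 were lower and 4 higher. The median difference was nearer to 0, at -0.04, without control replicate 3. In 16 of 16 probe sets the 95% confidence interval of the difference lay inside a doubling or halving, and over all of them the intervals reached from -0.40 to 0.34. The share of all probe sets tested with such an interval was not counted. The SD between lambs of a group had a median of 0.141 over the members and 0.145 over all probe sets tested. Intervals of this width are thus not particular to the members.

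**Figure D1:**
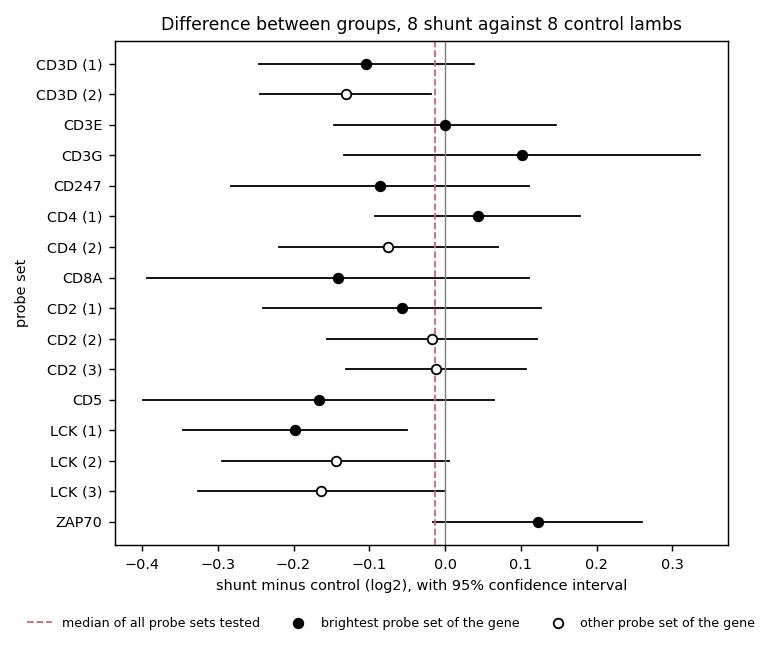
Difference between 8 shunt and 8 control lambs for each of the 16 probe sets, on the log2 scale, with the 95% confidence interval of the limma fit as a line and numbers in brackets marking the probe sets of a gene from bright to dim. Filled points are the brightest probe set of a gene, open points are its other probe sets, and the dashed line is the median of all probe sets tested, -0.01. Points lie between -0.20 (LCK) and 0.12 (ZAP70), and the intervals of 3 probe sets, 2 of LCK and 1 of CD3D, do not reach 0 before adjustment.

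The members differed widely in brightness. Signal over background is unknown, because no detection calls were used here, so brightness is given as the percentile of a probe set's mean level among all probe sets tested. CD247 (percentile 82.0) and CD3E (78.9) were the brightest, followed by CD8A (73.8), CD2 (65.8), CD5 (59.8) and CD4 (52.8), each by its brightest probe set. ZAP70 (41.2), CD3G (39.9), LCK (34.1) and CD3D (32.5) were below the median of the array even with their brightest probe set. The lowest 25% of the array held 4 member probe sets, which were the second ones of CD3D (7.81) and CD4 (13.5) and the third ones of LCK (10.8) and CD2 (20.5). The brightness of different probe sets depends on their sequence and here also on how well sheep RNA binds bovine probes, so these percentiles do not order the genes by RNA amount. Against this, 11 of 13 lung marker genes were measured, and all 11 were bright, from percentile 88.2 for the water channel AQP5 to 99.7 for the surfactant gene SFTPC.

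**Figure D2:**
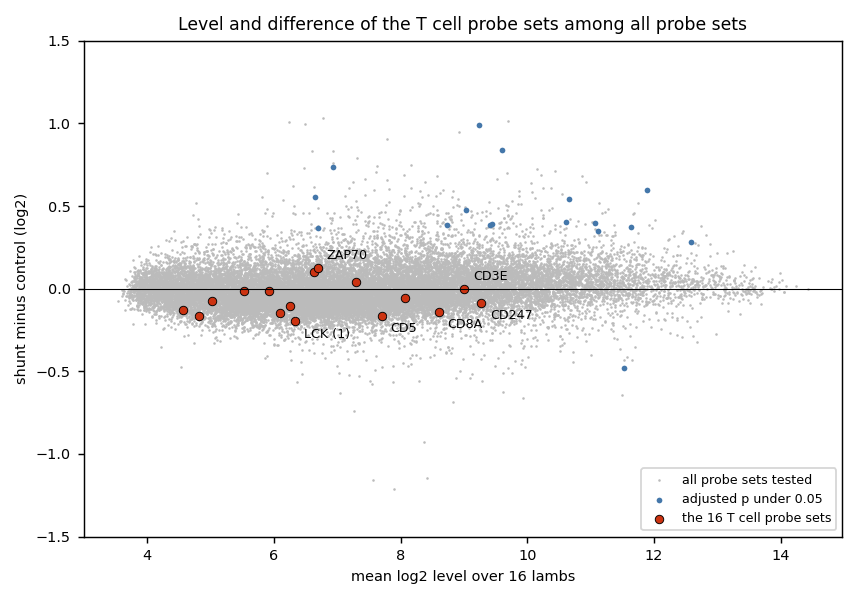
Mean log2 level over 16 lambs (horizontal) against shunt minus control (vertical, log2) for all 24016 probe sets tested in grey, those past an adjusted p of 0.05 in blue and the 16 T cell probe sets in red. The red points spread from the dim edge to percentile 82.0 of brightness and stay within the grey cloud between -0.20 and 0.12.

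Among the CD3 chains, CD3E, the chain that pairs with both of the others, had the same level in both groups. Its level (Bt.5368.1.S1_at) was lowest at 8.79, median 9.01 and highest 9.22 in the 8 control lambs, and 8.85, 8.98 and 9.26 in the 8 shunt lambs. The means were 9.00 ± 0.14 (SD, n = 8) and 9.00 ± 0.14, a difference of 0.00028 ± 0.07 (SE, limma adjusted p = 0.999). The 95% confidence interval, from -0.15 to 0.15, corresponds to a level in shunt between -9.63% and 10.7% away from that in control. The ranges of the groups nearly coincide, and 7 of 8 shunt lambs lay inside the control range.

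CD3D, the delta chain, was read by 2 dim probe sets. With the brighter one (Bt.6850.2.S1_at) control lambs had a lowest level of 6.18, a median of 6.28 and a highest of 6.40, and shunt lambs 5.90, 6.21 and 6.45. The difference was -0.10 ± 0.07 (SE, interval -0.25 to 0.04, limma adjusted p = 0.492). The shunt lambs were spread wider on this probe set, with an SD of 0.17 against 0.08, and shunt replicates 1 and 5 were the lowest of all 16 lambs. Without shunt replicate 1 the difference was -0.06. With the dimmer one (Bt.6850.1.S1_a_at) control lambs lay at 4.55, 4.59 and 4.86 and shunt lambs at 4.34, 4.51 and 4.59 (lowest, median and highest). All 8 shunt lambs were below the control mean of 4.63, and the difference was -0.13 ± 0.05 (SE, limma unadjusted p = 0.0253, adjusted p = 0.309). That probe set was the dimmest of the 16, and its highest control value, 4.86, was that of control replicate 2. Without that lamb its difference was -0.10 (limma adjusted p = 0.425). The deviations of the lambs on both probe sets had r = 0.23 (Spearman rho = 0.17, permutation p = 0.40 and 0.52, n = 16), so a lamb with a high reading on one had no clear tendency to a high reading on the other.

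CD3G, the gamma chain, varied more between lambs than CD3D and CD3E. Its level (Bt.13934.1.S1_at) was 6.24, 6.57 and 7.02 in control and 6.31, 6.70 and 7.03 in shunt (lowest, median and highest). Control lambs averaged 6.58 ± 0.25 (SD, n = 8) and shunt lambs 6.68 ± 0.24, which differ by 0.10 ± 0.11 (SE, interval -0.13 to 0.34, limma adjusted p = 0.697), and it ran from 0.05 without shunt replicate 6 or control replicate 4 to 0.17 without control replicate 8. The lamb-to-lamb SD was at percentile 88.4 of all probe sets tested, and the ranges of the groups were almost the same. CD247, the zeta chain and the brightest member (Bt.4763.1.S1_at), was at 9.13, 9.27 and 9.79 in control and 8.95, 9.19 and 9.51 in shunt. The difference was -0.09 ± 0.09 (SE, interval -0.28 to 0.11, limma adjusted p = 0.694). Control replicate 3 alone held the value 9.79, the next control lamb was at 9.35, and without control replicate 3 the difference was -0.02. Without shunt replicate 6, the lowest, it was -0.05.

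**Figure D3:**
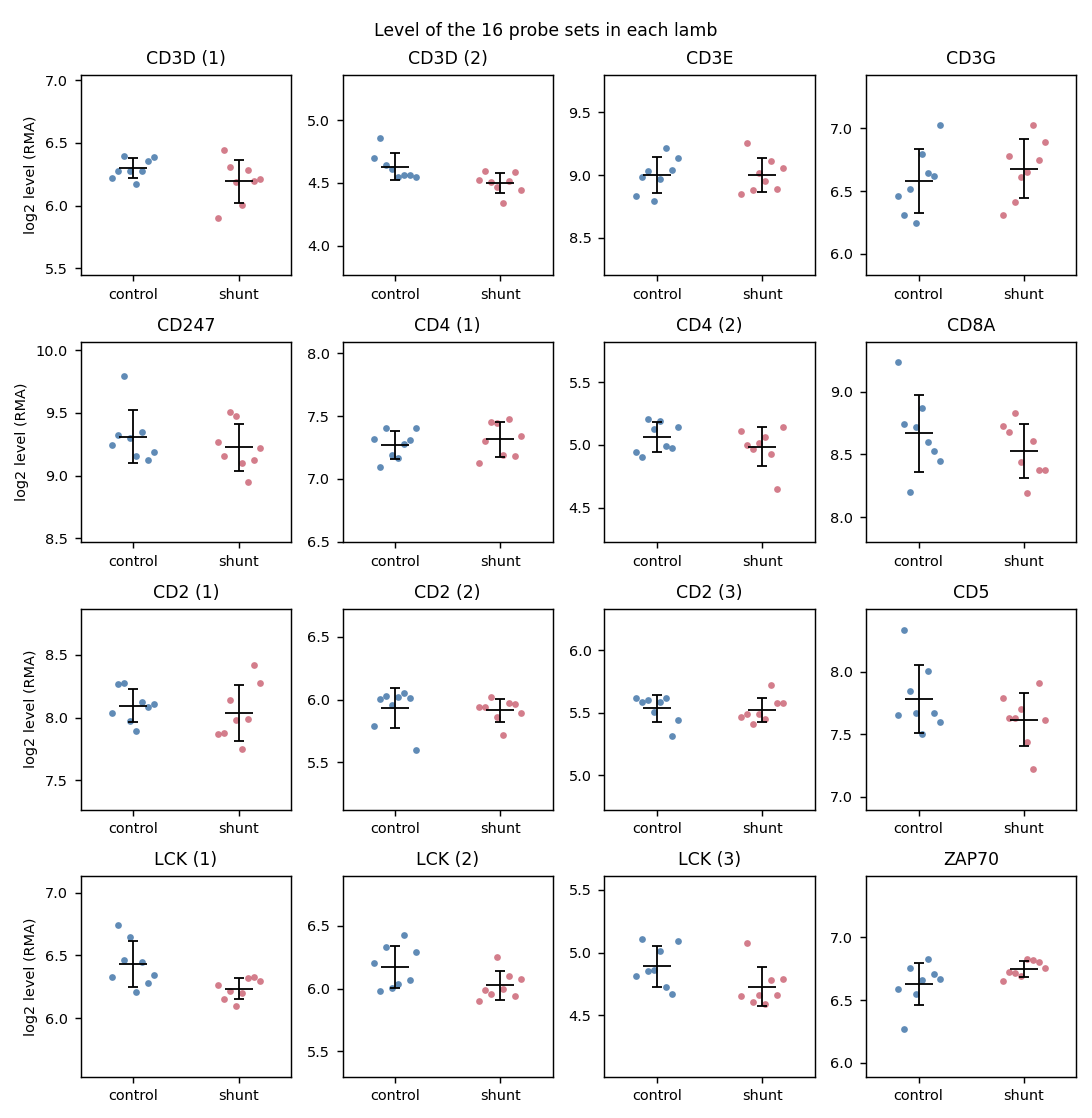
Log2 level of each of the 16 probe sets in each lamb, control in blue and shunt in red, with the mean and SD (n = 8) in black. Every panel spans 1.6 log2 units, and numbers in brackets mark the probe sets of a gene from bright to dim. The groups overlap in all 16 panels, the shunt lambs of ZAP70 lie close together inside a wider control group, and those of LCK (1) at its lower end, 3 of them below every control lamb.

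The co-receptors mark the main classes of T cell, helper cells with CD4 and cytotoxic cells with CD8. CD4 differed little. With the brighter probe set (Bt.27979.1.S1_at) control lambs had 7.10, 7.30 and 7.41 and shunt lambs 7.13, 7.32 and 7.48 (lowest, median and highest), a difference of 0.04 ± 0.06 (SE, interval -0.09 to 0.18, limma adjusted p = 0.784). Leaving out a lamb gave 0.02 to 0.07. The dimmer probe set of CD4 (Bt.27979.1.A1_at) has the same number in its identifier as the brighter one. It had the opposite sign, -0.07 ± 0.07 (SE, limma adjusted p = 0.639), with control lambs from 4.90 to 5.20 and shunt lambs from 4.65 to 5.14. Its lowest value was shunt replicate 7, and without that lamb the difference was -0.03.

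CD8A, the alpha chain of CD8, varied the most among lambs, with an SD at percentile 90.9 of all probe sets tested. Its level (Bt.50.1.S1_at) was 8.20, 8.66 and 9.24 in control and 8.19, 8.52 and 8.83 in shunt (lowest, median and highest). Control lambs averaged 8.67 ± 0.31 (SD, n = 8) and shunt lambs 8.53 ± 0.22, which differ by -0.14 ± 0.12 (SE, interval -0.39 to 0.11, limma adjusted p = 0.606). The highest and the second lowest of the 16 lambs were both controls, replicate 1 at 9.24 and replicate 3 at 8.20. Without control replicate 1 the difference was -0.06, and without shunt replicate 5 it was -0.09. CD8B, which encodes the partner chain and lies next to CD8A among the coding genes of the sheep genome (RefSeq, assembly ARS-UI_Ramb_v3.0), was named for that role and outside the naming rule. Its difference was -0.11 ± 0.07 (SE, limma adjusted p = 0.445).

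The balance of CD8A and CD4 was compared as the difference of both log2 levels within each lamb. Its absolute size has no meaning, since the probe sets differ in brightness, but its change between groups does. Control lambs averaged 1.40 ± 0.37 (SD, n = 8) and shunt lambs 1.21 ± 0.22, with control lambs from 0.80 to 1.92 and shunt lambs from 0.99 to 1.60. The shunt range lay inside the control range. The difference of -0.18 had an exact two-sided permutation p of 0.24 over the 12870 divisions of the lambs. It was between -0.27 without control replicate 3 (exact permutation p = 0.070) and -0.11 without control replicate 1 (exact permutation p = 0.45).

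**Figure D4:**
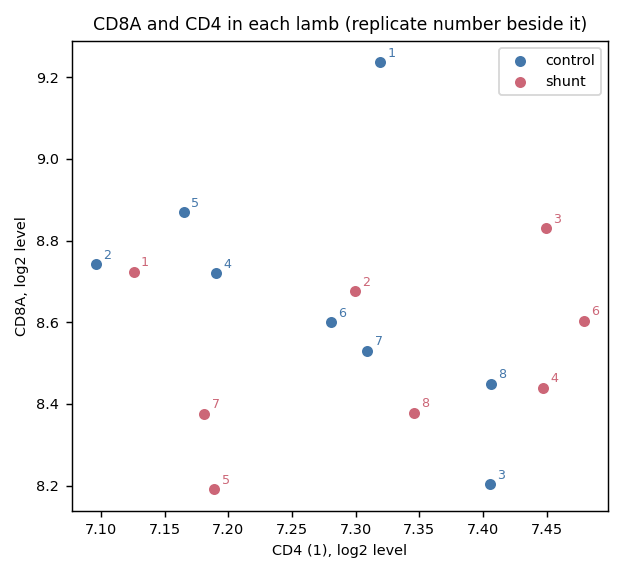
Log2 level of CD8A (vertical) against that of CD4 (horizontal, brighter probe set) in each lamb, with the replicate number beside each point, control in blue and shunt in red. Control replicates 1 and 3 lie at the top and near the bottom of the plot at 9.24 and 8.20 on the CD8A axis, and the shunt lambs lie between 8.19 and 8.83.

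The accessory receptors CD2 and CD5 also overlapped between groups. The brightest CD2 probe set (Bt.10954.1.S1_at) was at 7.89, 8.10 and 8.27 in control and 7.75, 7.98 and 8.42 among shunt lambs (lowest, median and highest), and the difference was -0.06 ± 0.09 (SE, interval -0.24 to 0.13, limma adjusted p = 0.789). It ran from -0.02 without shunt replicate 5 to -0.11 without shunt replicate 7. The other CD2 probe sets differed by -0.02 and -0.01, and on both the sign turned when arrays were centred on their medians, normalized by quantiles again or by cyclic loess. Their levels ran from 5.60 to 6.05 and from 5.32 to 5.72 over the 16 lambs. CD5 (Bt.4497.1.S1_at) was at 7.50, 7.67 and 8.33 in control and 7.22, 7.63 and 7.91 among shunt lambs, and the difference was -0.17 ± 0.11 (SE, interval -0.40 to 0.06, limma adjusted p = 0.499). Control replicate 2 held the value 8.33 and shunt replicate 6 the value 7.22. Without control replicate 2 the CD5 difference was -0.09, and without shunt replicate 6 it was -0.11. CD6, a relative of CD5 and its neighbour among coding genes of the sheep genome, was also named for that role and differed by -0.05 and -0.08 on its 2 probe sets (limma adjusted p = 0.687 and 0.678).

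LCK, the kinase that starts receptor signalling, was lower in shunt on each of its 3 probe sets and had the smallest p of the members, but did not pass. With the brightest probe set (Bt.22229.2.S1_at) control lambs were at 6.21, 6.39 and 6.74 and shunt lambs at 6.09, 6.24 and 6.33 (lowest, median and highest). The means were 6.43 ± 0.18 (SD, n = 8) and 6.23 ± 0.08, a difference of -0.20 ± 0.07 (SE, interval -0.35 to -0.05, limma unadjusted p = 0.0115, adjusted p = 0.259), or a shunt level 0.872 times that of control. All 8 shunt lambs lay below the control mean, 5 of them lay inside the control range, and 3 were below every control lamb. The highest control lamb was replicate 2, and without it the difference was -0.15 (limma adjusted p = 0.356).

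The other LCK probe sets had differences of similar size. One (Bt.21333.1.A1_at) was at 5.98, 6.14 and 6.43 in control and 5.90, 5.99 and 6.25 among shunt lambs, and the difference was -0.14 ± 0.07 (SE, limma unadjusted p = 0.0573, adjusted p = 0.378). The other (Bt.22229.1.S1_at), dim at percentile 10.8, was at 4.67, 4.86 and 5.11 in control and 4.59, 4.66 and 5.07 among shunt lambs, and the difference was -0.16 ± 0.08 (SE, limma unadjusted p = 0.0481, adjusted p = 0.360). On each of these probe sets 7 of 8 shunt lambs were below the control mean. The exception on the dim one was shunt replicate 2, at 5.07, and on the brighter one shunt replicate 4, at 6.25. Within groups the 3 probe sets showed no clear relation from lamb to lamb. The r between their deviations was -0.29, 0.14 and -0.15 (Spearman rho -0.21, 0.22 and -0.16, permutation adjusted p = 0.60 or more for r over 8 such pairs, n = 16).

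ZAP70, the kinase that acts after LCK, was the member with the largest difference upward. Its level (Bt.20905.1.S1_at) was 6.27, 6.67 and 6.83 in control and 6.66, 6.74 and 6.83 in shunt (lowest, median and highest). The means were 6.63 ± 0.17 (SD, n = 8) and 6.75 ± 0.06, a difference of 0.12 ± 0.07 (SE, interval -0.02 to 0.26, limma unadjusted p = 0.0786, adjusted p = 0.411). All 8 shunt lambs were above the control mean, yet all 8 also lay inside the control range. The lowest control lamb was replicate 2, at 6.27, and without it the difference was 0.07. Whether LCK and ZAP70 differed from each other in their response was not tested.

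Control replicate 2 thus held an extreme of its group for CD4, CD5, LCK and ZAP70 by their brightest probe sets. It also had the lowest array weight, 0.232. The values without it are given above for CD5, LCK and ZAP70, and for CD4 the difference without it was 0.02. Over the 10 genes no lamb was high or low throughout. The lowest mean deviation from the group was -0.13, in shunt replicate 5, which was below its group mean for 9 of 10 genes, and the highest was 0.07, in control replicate 6.

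The lamb-to-lamb variation of the 10 genes was then compared gene by gene, as deviations from the group means. The question was whether lambs high for a member were high for the others too. Of the 45 pairs, 22 had a positive r and 23 a negative one, with a median of -0.01. None passed after adjustment over the 45 pairs, and 7 had an unadjusted permutation p under 0.05 for r (100000 resamples, n = 16). The precision of each r is limited by the 16 lambs, and each r rests on 1 probe set per gene. Probe sets of the same gene agreed little by this measure. Their r was 0.23 for CD3D, 0.16 for CD4, 0.21 to 0.26 for the pairs of CD2 and -0.29 to 0.14 for those of LCK.

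The 3 pairs with the smallest permutation p for r were CD3E with CD3G, CD3D with CD4 and CD3D with CD3E. By rho the pair of CD247 and CD5 ranked among them. CD3E and CD3G had r = 0.66 (Spearman rho = 0.72, permutation p = 0.0052 and 0.0022, adjusted p = 0.19 and 0.10), with r = 0.64 in control and 0.69 in shunt lambs and r = 0.78 without the 2 lambs farthest from the median of CD3E. CD3D and CD4 had r = 0.62 (rho = 0.66, permutation p = 0.0085 and 0.0069, adjusted p = 0.19 and 0.10), with 0.67 in control and 0.63 in shunt lambs and 0.69 without the 2 farthest. CD3D and CD3E, which are neighbours in the sheep genome, had r = 0.57 (rho = 0.58, permutation p = 0.021 and 0.020, adjusted p = 0.29 and 0.18). That relation rested on shunt replicates 1 and 2, and r was 0.31 without them.

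A further pairing joined CD5 with CD2 and LCK. CD2 and CD5 had r = 0.54 (rho = 0.46, permutation p = 0.030 and 0.076, adjusted p = 0.29 and 0.27), at 0.76 in control and 0.44 in shunt lambs and 0.51 without the 2 farthest lambs. CD5 and LCK had r = 0.52 (rho = 0.43, permutation p = 0.039 and 0.099, adjusted p = 0.29 and 0.32), at 0.76 in control and -0.07 in shunt lambs and 0.46 without the 2 farthest. The difference between those groups was not tested. CD3G and CD5 were opposed, with r = -0.50 (rho = -0.46, permutation p = 0.048 and 0.071, adjusted p = 0.31 and 0.27) and -0.43 without the 2 farthest lambs. CD3G and ZAP70 had r = 0.53 (rho = 0.57, permutation p = 0.032 and 0.024, adjusted p = 0.29 and 0.18), at 0.53 in control and 0.69 in shunt lambs and 0.54 without the 2 farthest.

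CD8A had a negative r with each of the other 9 genes, from -0.42 with ZAP70 to -0.08 with CD5, none with an unadjusted permutation p under 0.05 for r. In part of the pairs the sign rested on few lambs. Without control replicates 1 and 3, the farthest from the median of CD8A, r was -0.14 with CD2, 0.06 with CD5, 0.06 with LCK and -0.38 with ZAP70. In the other pairs the 2 lambs farthest on the other gene were left out. There r was 0.02 with CD247 (without control replicate 3 and shunt replicate 3) and 0.02 with CD4 (without control replicate 2 and shunt replicate 1). It stayed negative with CD3D, CD3E and CD3G. In shunt lambs alone r was positive in 5 of the 9 pairs. Its rho with ZAP70 was -0.55 (permutation p = 0.031, adjusted p = 0.20). Among the 8 control lambs alone CD8A and CD3D had r = -0.85 (exact permutation p = 0.0061, adjusted p = 0.27), and among the 8 shunt lambs r = 0.32 (exact permutation p = 0.44). CD247, whose product sits in the same receptor complex, had r = 0.13 for CD3D, -0.12 for CD3E and -0.48 for CD3G (rho = -0.63 for the latter, permutation p = 0.060 and 0.011, adjusted p = 0.32 and 0.12). Its rho with CD5 was 0.67 (permutation p = 0.0054, adjusted p = 0.10) while its r was 0.41, or 0.58 without control replicate 3 and shunt replicate 3.

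**Figure D5:**
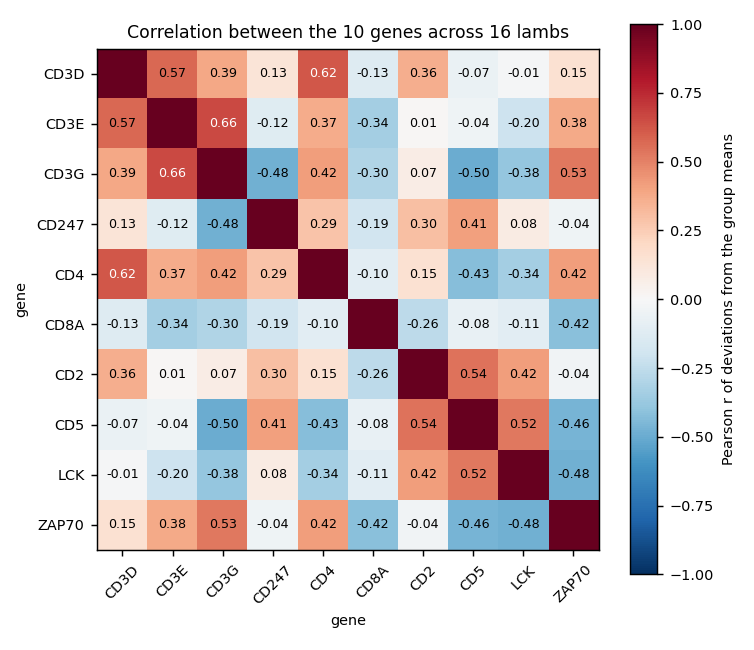
Pearson r between the 10 genes over 16 lambs, computed on deviations from the group means with the brightest probe set of each gene, from blue (-1) to red (1). CD3D, CD3E and CD3G are positive with each other (0.39 to 0.66). Without shunt replicates 1 and 2, r of CD3D is 0.31 with CD3E and 0.16 with CD3G. Without control replicate 6 and shunt replicate 2, r of CD3E and CD3G is 0.78. CD2, CD5 and LCK are likewise positive (0.42 to 0.54), but CD5 and LCK have 0.76 in control and -0.07 in shunt lambs. The row of CD8A is negative with all other genes. Without the 2 lambs farthest from the median of the pair's gene that comes first in the plot, 4 of those 9 pairs turn positive. In shunt lambs alone 5 are positive.

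Outside the members, the 8 genes whose deviations were most like the mean of CD3D, CD3E and CD3G over the 16 lambs were IFNAR2, PTGFR, CRHBP, PPA1, POLR3K, RAN, MPHOSPH6 and UGDH. Their r was 0.880 for IFNAR2, a chain of the type I interferon receptor, 0.854 for PTGFR, the receptor of prostaglandin F, 0.851 for CRHBP, a binding protein of corticotropin-releasing hormone, and 0.848 for PPA1, a pyrophosphatase. It was 0.834 for POLR3K, a subunit of RNA polymerase III, 0.817 for RAN, a GTPase of nuclear transport, 0.813 for MPHOSPH6 and 0.802 for UGDH. Their Spearman rho lay between 0.800 and 0.894. They were picked as the highest of 13276 probe sets compared, so these values describe the 16 lambs and carry no test. CD4 had r = 0.55 with the same mean, and 521 single-symbol probe sets outside the members had a higher one. ZAP70 had r = 0.47, CD2 0.16, CD247 -0.27, LCK -0.28, CD5 -0.32 and CD8A -0.32.

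Other genes of T cell receptor signalling and co-stimulation did not pass either. Of 54 genes listed 35 were measured, 14 of them higher and 21 lower. Limma called 0, and at an unadjusted p under 0.05 it had 2 above and 1 below control. The median difference was -0.03. FYN, a kinase related to LCK that is also expressed in many other cell types, differed by 0.20 ± 0.06 (SE, limma adjusted p = 0.213), with 8 of 8 shunt lambs above the control mean. The adaptor LCP2 differed by 0.20 ± 0.08 (adjusted p = 0.305), the phospholipase PLCG1 by 0.12 ± 0.06 (adjusted p = 0.379) and the transcription factor NFATC3 by -0.41 ± 0.14 (adjusted p = 0.237). LAT, the membrane scaffold that ZAP70 phosphorylates, was named for that role and differed by -0.09, 0.0013 and -0.13 on its 3 probe sets, from bright to dim.

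T cell lineage, homing and effector genes were balanced between directions. Of 47 listed 27 were measured, 13 higher and 14 lower with a median of -0.0022, and limma called 0, with 1 above and 2 below control at an unadjusted p under 0.05. The cytotoxic granule genes GZMB (-0.20 ± 0.08, SE, limma adjusted p = 0.271) and NKG7 (-0.15 ± 0.07, adjusted p = 0.362) were on the lower side, as was the cytokine gene IL17A (-0.13 ± 0.06, adjusted p = 0.378). Control replicate 2 was the highest control for each of these genes. Without it the differences were -0.15 for GZMB, -0.11 for NKG7 and -0.09 for IL17A. GZMB was dim, at percentile 17.0. The adhesion receptor CD44 (0.24 ± 0.10, adjusted p = 0.295) was on the higher side. Of 7 thymocyte genes 2 were measured, CD1B at 0.16 (0.06 without shunt replicate 4) and DNTT, the template-free DNA polymerase of receptor rearrangement, at -0.04 (-0.01 without shunt replicate 5), the latter at percentile 12.2.

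Young ruminants carry many gamma-delta T cells, a part of which bear WC1 family receptors, so the antigen receptor chain and WC1 symbols in the annotation were added as a list of 5 genes. The receptor alpha chain probe set TCRA was bright, at percentile 85.1, and differed by -0.02 ± 0.07 (SE, limma adjusted p = 0.902). The gamma chain genes TRGC4 and TRGC6 differed by 0.03 and 0.06, and the WC1 family symbols CD163L1 and WC1.3 by -0.09 and -0.06, with adjusted p from 0.529 to 0.881. The sign turned for TCRA without control replicate 2 (0.01) and for TRGC4 without control replicate 5 (-0.0013), TRGC6 was at 0.0039 without control replicate 2, and WC1.3 was at -0.03 without control replicate 3. These are multigene families, and probes can bind several copies. Of the 5 genes 2 were higher and 3 lower, and limma called 0, with 0 at an unadjusted p under 0.05.

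Markers of other leukocytes were read beside the members because several members are shared with those cells. Each gene was read by its brightest probe set, and limma called 0 genes in each of the 6 lists. Natural killer markers had 3 of 11 measured genes higher and a median of -0.10, with KLRB1, dim at percentile 5.05, at 0.19, NCR1 at -0.12 (-0.08 without control replicate 2), KLRD1 at 0.11 (0.07 without shunt replicate 8) and NKG7, which is also in the effector list, as above, and their mean log2 level ran from 6.73 to 6.97 in control and 6.68 to 6.90 in shunt lambs. At an unadjusted p under 0.05 that list had 1 gene higher and 1 lower. B and plasma cell markers had 4 of 6 higher and a median of 0.03, with CD79A at -0.18 the only one at an unadjusted p under 0.05, JCHAIN at 0.20 (0.11 without control replicate 2), BLNK at 0.14 (0.07 without shunt replicate 2) and MS4A1 at 0.05 (0.01 without control replicate 5). Their mean level ran from 6.67 to 6.85 in control and 6.61 to 7.00 in shunt.

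Macrophage and monocyte markers had 5 of 11 higher and a median of -0.03. The scavenger receptor MSR1 (0.50 ± 0.15, SE, limma adjusted p = 0.209) and the lipopolysaccharide receptor CD14 (0.42 ± 0.15, adjusted p = 0.264) were higher at an unadjusted p under 0.05, and FCGR1A was at 0.19 and ITGAM at -0.10 (-0.07 without control replicate 2). Their mean level ran from 8.28 to 8.75 in control and 8.41 to 8.92 in shunt. Dendritic cell markers had 2 of 4 higher and a median of -0.02, with CD83 at -0.09 (-0.19 without control replicate 2), LAMP3 at -0.06 (0.04 without control replicate 8), IRF8 at 0.02 (-0.03 without control replicate 2) and CD1B, which is also in the thymocyte list, as above, and mean levels from 7.66 to 8.23 in control and 7.77 to 8.10 in shunt.

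Neutrophil markers had 0 of 8 higher and a median of -0.18. ELANE at -0.24, MPO at -0.17 and CAMP, dim at percentile 5.30, at -0.12 were lower at an unadjusted p under 0.05. Without control replicate 2, ELANE was at -0.17 and MPO at -0.12. MMP9 was at -0.29 (-0.18 without control replicate 5). The mean level of the neutrophil markers ran from 6.64 to 7.14 in control and 6.50 to 6.95 in shunt. Markers shared by all leukocytes had 4 of 11 higher and a median of -0.03. By the brightest probe set of each gene, ARHGDIB at 0.21 was the only one at an unadjusted p under 0.05. LAPTM5 was at 0.15 (0.09 without control replicate 2), RAC2 at -0.17 (-0.08 without control replicate 7) and CD48 at -0.10 (-0.05 without control replicate 5). Mean levels ran from 8.28 to 8.97 in control and 8.42 to 8.83 in shunt. PTPRC, the CD45 phosphatase that all leukocytes carry, was named for that role and differed by 0.01, -0.21 and -0.01 on its 3 probe sets, from bright to dim (limma adjusted p = 0.974, 0.291 and 0.979). The probe set at -0.21 had a limma unadjusted p of 0.0194, with 8 of 8 shunt lambs below the control mean. It was dim, at percentile 13.8, and control replicate 2 stood apart on it at 5.67. The other control lambs were between 4.90 and 5.17. The mean level of the 10 T cell genes themselves ran from 7.54 to 7.68 in control and from 7.43 to 7.61 in shunt lambs. The part of other leukocytes in the members' differences was not tested.

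The tissue was lung by its markers, which had 4 of 11 higher in shunt, a median of -0.15 and 0 called by limma, with 2 above and 4 below control at an unadjusted p under 0.05. The endothelial adhesion molecule PECAM1 was at 0.28 (adjusted p = 0.0609), AQP5 at -0.26, SFTPB at -0.23 and the epithelial cadherin CDH1 at -0.19. Their mean level ran from 11.85 to 12.07 in control and 11.90 to 12.01 in shunt lambs. Over all probe sets tested, 16 were higher and 1 lower past the threshold, and array correlations ran from 0.980 to 0.995.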

How the data were processed

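The values are log2 levels as the authors deposited them, 1 for each array and probe set. Per the submitters' processing notes they used RMA (version not given in the sources used here), which corrects background, normalizes arrays by quantiles and summarizes probes. Sheep RNA was read by bovine probe sets, per the identifiers. Of 24128 probe sets, 112 manufacturer controls were left out, and 24016 were tested with no filter, of which 13292 had 1 gene symbol. Groups were contrasted in R 4.3.3 with limma 3.58.1 (lmFit, eBayes, two-sided, Benjamini-Hochberg over all probe sets, threshold 0.05, no covariate) and checked on simulated data. Precision is limited by how many arrays there are. Batches and scan dates were not known and were not tested. Correlations and exact tests used scipy 1.17.1 in Python 3.11.15, and plots matplotlib 3.10.9. The members and lists were chosen with earlier results of these data known, and the gamma-delta list was added last. All member probe sets are named, with up to 4 genes of smallest p per list, each by its brightest probe set, and the 8 genes most like the CD3 chains. CD8B, CD6, LAT and PTPRC were named outside that rule for their roles, all 5 gamma-delta genes because that list is short, and SFTPC as the brightest lung marker. Leaving out arrays for genes outside the members was added after the data were seen. Of the 10 members, 8 symbols were in a table of sheep genes. No sequence was used here. Alternatives are those named in the closing section.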

Additional observations from a re-analysis of the deposited data

Results flagged for a closer look

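In 7 of 132 sets of 8 values a single lamb stood apart, judged by its distance to the nearest other lamb as a share of that group's range, and chance gives about 1 in 20, or 6.6. Among the members, control replicate 3 was the highest control for CD247 (9.79 against 9.13 to 9.35, ratio of gap to range 0.665). Shunt replicate 7 was the lowest shunt lamb on the dimmer CD4 probe set (4.65 against 4.93 to 5.14, ratio 0.569). Shunt replicate 2 was the highest shunt lamb on the dimmest LCK probe set (5.07 against 4.59 to 4.79, ratio 0.594).

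Among the other genes, control replicate 2 was the highest control for GZMB (5.78 against 5.22 to 5.48, ratio 0.531) and the lowest for CD83 (6.01 against 6.59 to 7.07, ratio 0.544). Shunt replicate 2 was the highest shunt lamb for MSR1 (9.08 against 8.05 to 8.49, ratio 0.576), and shunt replicate 3 for ARHGDIB (9.19 against 8.55 to 8.77, ratio 0.662).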

How the results depend on the processing

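The count of member probe sets past the threshold was 0 under every alternative run: the replicate block, median centring, quantile normalization again, cyclic loess, removal of the dimmest 25% (which kept 12 of the 16), array weights, a trended and robust prior, 1 probe set or the mean of the probe sets per gene, a threshold of 0.10, and each array left out. At an unadjusted p under 0.05 (limma) 3 probe sets were lower, but 1 without the dim probe sets or with the brightest probe set per gene, and 1 to 4 with an array left out (1 without shunt replicate 5). With the replicate number as a block the count was 3 and LCK had adjusted p = 0.384. Same-numbered arrays had correlations from -0.26 to 0.22, with 2 of 8 above 0.1. The labels used here name no pairing, and these values cannot settle whether same-numbered lambs were paired. Over all probe sets the block left 0 calls of 17.

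The median member difference was -0.08, ran from -0.07 to -0.06 under other scalings and from -0.097 to -0.043 with an array left out. CD3E turned to -0.0226 after quantile normalization again and -0.0118 after cyclic loess (-0.036 to 0.031 with an array left out), and CD4 to -0.0159 with the mean of its probe sets. The dimmer CD2 probe sets turned to 0.0060 and 0.011 after median centring, 0.0080 and 0.0098 after quantile normalization again, and 0.017 and 0.015 after cyclic loess (-0.065 to 0.011 and -0.043 to 0.0040 with an array left out). These values are all near 0, and the cause was not tested. CD8A minus CD4 ran from -0.27 to -0.11 with an array left out and was -0.13 with the mean of the probe sets. In control or shunt lambs alone 0 pairs of genes passed.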
